A study of Mus musculus with 6 samples.

Results

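The nephron progenitor niche was examined through 10 signalling genes, namely Gdnf, Itga8, Fgf9, Fgf20, Fgfr1, Fgfr2, Spry1, Spry2, Bmp7 and Bmper. They were given by name, with no threshold on a measured value, and are 10 of the 26567 genes that could be measured. RNA had been sequenced from cap mesenchyme, the cells that cover the tips of the branching ureteric bud in the embryonic kidney, sorted by FACS from C57BL/6 kidneys at embryonic day 18.5. The genotypes were Dnmt1 +/- (heterozygous, HET, 3 libraries) and Dnmt1 -/- (knockout, KO, 3 libraries). Every embryo carried the Six2.Cre transgene and conditional Dnmt1, whose product copies DNA methylation at replication. The controls were thus not wild type, since 1 copy of Dnmt1 was deleted in them too. Cre was driven by Six2, so recombination was directed to the nephron progenitors and their descendants and not to the other cells of the kidney. The marker used for the sort is not given in the sources used here. The labels do not say whether each library of a group came from a separate embryo. Y-linked genes summed to 332, 9.65 and 268 CPM (counts scaled to library size) in HET replicates 1 to 3. In KO replicates 1 to 3 they summed to 7.66, 168 and 9.85 CPM. HET replicates 1 and 3 and KO replicate 2, each above 50 CPM, were thus read as male and the others as female. Some Y-linked counts were present in the libraries read as female too, and whether a library pooled several embryos was not tested. Each group therefore held more than 1 embryo, but libraries of the same sex may share an embryo. The p-values below measure only the spread between these samples, which may be technical in part.

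In the developing kidney GDNF, secreted by the cap mesenchyme, binds GFRA1 and activates the receptor RET on the ureteric bud, which makes the bud grow and branch. FGF9 and FGF20 signal through FGFR1 and FGFR2 to keep nephron progenitors alive and undifferentiated, and the Sprouty proteins SPRY1 and SPRY2 are feedback inhibitors of such receptor tyrosine kinases. BMP7 supports the survival and proliferation of the progenitors, BMPER is a secreted protein that binds BMPs and can raise or lower their activity, and the integrin chain ITGA8 joins the mesenchyme to nephronectin around the bud.

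The libraries held 46741667 to 61585484 estimated counts, of which 43348512 to 57165335 were paired with genes. Relative to the paired counts, 3 counts amounted to 0.0525 to 0.0692 CPM (counts scaled to equal library size). This floor, like the precision of any single count, accounts for counting error alone. Dnmt1 itself was at 40.0, 52.4 and 51.7 CPM in HET replicates 1 to 3 and at 20.9, 18.6 and 14.9 CPM in KO replicates 1 to 3. Its log2 fold change was -1.41 ± 0.15 (SE; adjusted p = 0.000264 by the edgeR quasi-likelihood test with Benjamini-Hochberg adjustment). Cap mesenchyme markers were present in all libraries, with Six2 between 75.0 and 124 CPM. KO replicate 1 stood apart in markers of other cells: the summed level of 10 endothelium markers was 194 CPM there, 77.6 and 41.2 CPM in KO replicates 2 and 3, and 29.9 to 34.9 CPM in the HET libraries. The log2 fold changes of the 10 genes without this library are given below, after those of all libraries.

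Of the signalling genes, Bmper was the only one whose level passed the test, and it was lower in the knockout. The other 9 did not pass. Gdnf, Spry2, Fgfr1 and Bmp7 had fold changes close to 0, with knockout means at 101.8%, 102.3%, 106.3% and 110.0% of the heterozygous means. All 10 genes entered the edgeR test, in which 1 was lower and 0 were higher in the knockout, against 1.92% of all 16989 tested genes that were lower and 4.92% that were higher (6.85% in either direction). At an unadjusted p of 0.05 the counts in edgeR were 3 lower and 0 higher, beside 9.61% and 12.4% of all tested genes. DESeq2 gave 2 lower and 0 higher, beside 2.98% and 6.84% of the genes it tested, and limma voom gave 1 lower and 0 higher, beside 1.63% and 4.66%. For 3 genes, Bmper, Itga8 and Spry1, all knockout libraries lay below all heterozygous libraries, and for 0 genes above them. Over all tested genes the shares were 14.2% and 14.8%. The median log2 fold change of the 10 genes was -0.042, beside -0.003 over all tested genes.

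**Figure D1:**
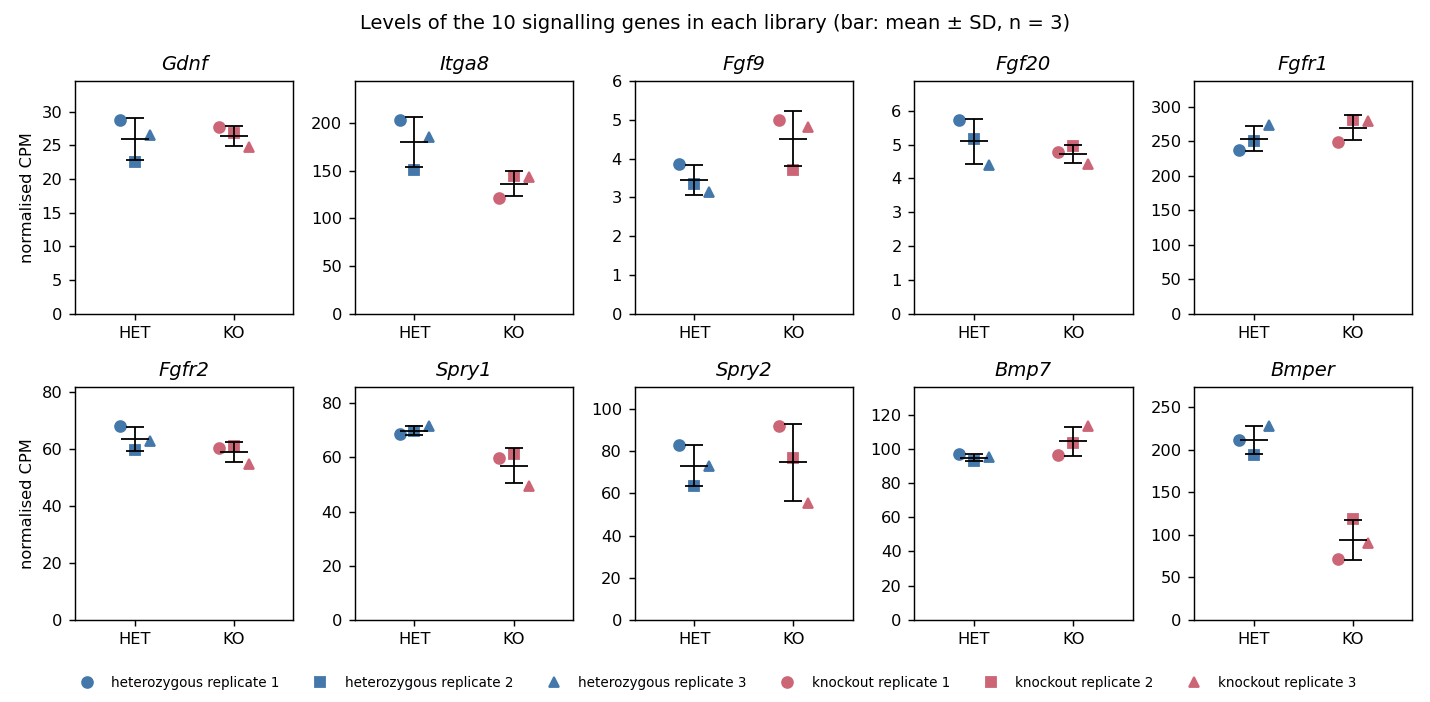
Normalised CPM (y axis, linear from 0) of the 10 genes in each of the 6 libraries, with HET and KO on the x axis, a marker shape for each replicate number, and bars for the mean ± SD (n = 3). The knockout points lie below all heterozygous points for Bmper (71.8 to 119 against 194 to 228 CPM), Itga8 and Spry1, and the groups overlap for the other genes.

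**Figure D2:**
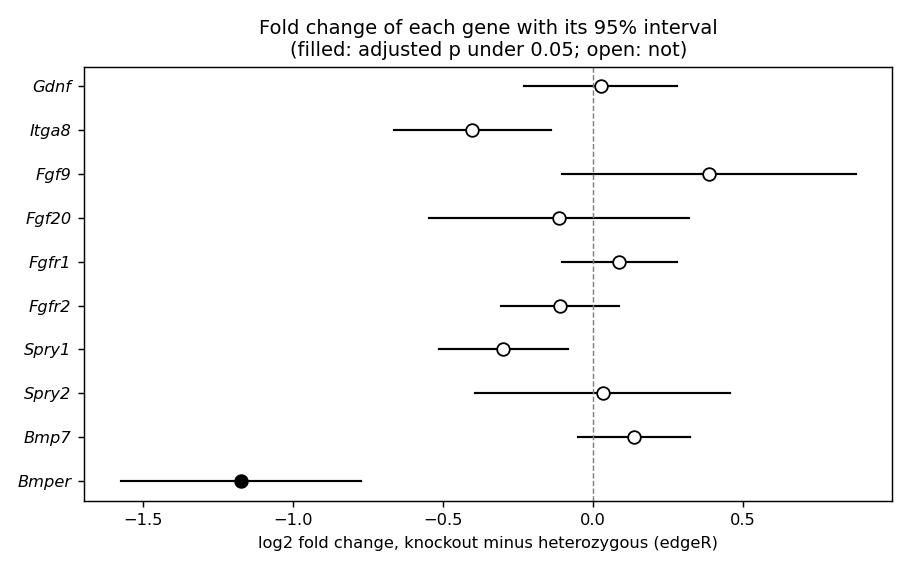
Log2 fold change, knockout minus heterozygous, from edgeR (x axis) for each gene (y axis), with its 95% interval as a line. The filled point is Bmper at -1.17, the only gene with an adjusted p under 0.05, and the intervals of Itga8 and Spry1 are the only others that do not include 0.

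The sequences just before a RefSeq transcript start of 4 of the genes are shown because Dnmt1 acts on cytosines that are followed by guanine, the CG pairs, and these genes span the outcomes: Bmper passed the test, Itga8 and Spry1 had separate groups without passing it, and Gdnf overlapped between groups. Each line is the 250 bases 5′ to 3′ on the strand of the gene, from RefSeq on the build GRCm38.p6, with CG pairs in capitals. Bmper is at chr9:23222826-23223075 on the plus strand, Itga8 at chr2:12301945-12302194 on the minus strand, Spry1 at chr3:37639697-37639946 on the plus strand and Gdnf at chr15:7809798-7810047 on the plus strand. The stretch for Itga8 precedes a start inside the annotated gene, so that 41 of its 250 bases lie within the gene, while those of the other 3 end where the gene begins.
Bmper: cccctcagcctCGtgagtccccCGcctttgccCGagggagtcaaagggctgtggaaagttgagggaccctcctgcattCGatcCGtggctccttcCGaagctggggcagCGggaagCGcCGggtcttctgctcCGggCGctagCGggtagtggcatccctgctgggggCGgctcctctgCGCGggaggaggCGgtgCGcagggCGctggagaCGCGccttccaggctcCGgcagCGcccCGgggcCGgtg
Itga8: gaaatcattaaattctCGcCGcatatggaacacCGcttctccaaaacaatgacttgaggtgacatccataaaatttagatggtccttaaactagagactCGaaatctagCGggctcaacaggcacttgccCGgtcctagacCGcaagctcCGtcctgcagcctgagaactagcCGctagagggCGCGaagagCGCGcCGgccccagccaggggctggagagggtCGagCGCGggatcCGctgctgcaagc
Spry1: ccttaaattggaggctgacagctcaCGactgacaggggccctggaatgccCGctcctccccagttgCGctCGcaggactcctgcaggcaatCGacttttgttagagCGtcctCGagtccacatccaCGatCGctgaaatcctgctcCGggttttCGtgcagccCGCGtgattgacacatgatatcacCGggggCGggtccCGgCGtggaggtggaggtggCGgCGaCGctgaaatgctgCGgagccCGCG
Gdnf: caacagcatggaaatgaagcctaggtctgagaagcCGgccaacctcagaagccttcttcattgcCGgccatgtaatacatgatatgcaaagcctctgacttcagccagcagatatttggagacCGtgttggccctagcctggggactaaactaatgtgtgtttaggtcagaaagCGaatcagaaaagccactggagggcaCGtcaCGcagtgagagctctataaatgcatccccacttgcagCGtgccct
These stretches held 24 CG pairs for Bmper, 23 for Spry1, 18 for Itga8 and 7 for Gdnf. A second RefSeq window for Gdnf, at chr15:7813477-7813726 within the gene, held 14. Counted with the first 50 transcribed bases, the windows held 31 CG pairs for Bmper, 29 for Spry1, 23 for Itga8 and 11 and 22 for Gdnf. The median over all 32851 RefSeq windows was 7 CG pairs, and 94.6% of the windows held at least 1 CG. The share of windows with fewer CG pairs was 89.4% for Bmper, 87.1% for Spry1, 78.5% for Itga8, and 58.6% and 76.9% for Gdnf. Spry2, whose groups overlapped, had 28 CG pairs in its window, and 85.8% of windows held fewer. Fgf9 and Fgfr2 had 12 and 4. A window was found for 7 of the 10 genes. CG content is the same letters on either strand and is a description of the reference only, since methylation was not measured here.

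Gdnf, the ligand that draws the ureteric bud into the mesenchyme, lies on chromosome 15 from 7810048 to 7837580 (GRCm38). It was measured at 28.8, 22.5 and 26.5 CPM in HET replicates 1 to 3 and at 27.7, 26.7 and 24.7 CPM in KO replicates 1 to 3. All knockout values lay inside the heterozygous range. Group means were 25.9 ± 3.15 and 26.4 ± 1.51 CPM (SD, n = 3 each), and the log2 fold change was 0.03 ± 0.11 (SE; adjusted p = 0.917 by edgeR with Benjamini-Hochberg) with a 95% interval from -0.23 to 0.28. The sign turned to -0.14 when libraries were scaled to their totals, a scaling that moved the median of all genes to -0.17. Gdnf has a single transcript in the annotation, so its value did not depend on a division of reads among models.

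Itga8, the alpha8 integrin chain through which the mesenchyme binds nephronectin, lies on chromosome 2 from 12106632 to 12301985. Its level was 203, 151 and 186 CPM in HET replicates 1 to 3 and 121, 144 and 143 CPM in KO replicates 1 to 3. The groups did not overlap, although HET replicate 2 lay only slightly above the highest knockout library. The heterozygous mean was 180.0 ± 26.5 CPM and the knockout mean 136 ± 13.2 CPM (SD, n = 3 each), or 75.7% of the heterozygous level. The log2 fold change of -0.40 ± 0.12 (SE) did not pass the test (edgeR, Benjamini-Hochberg adjusted p = 0.0761), and its 95% interval ran from -0.66 to -0.14. It passed with DESeq2 (adjusted p = 0.0211), with library totals (edgeR, adjusted p = 0.0106), in the limma fits on log2(TPM + 1) and log2(TPM + 0.1) with a minimum TPM (adjusted p = 0.0481 and 0.0491) and without HET replicate 2 (edgeR, adjusted p = 0.0314). With library totals and in those TPM fits the median of all genes was itself at -0.17, -0.13 and -0.14. These settings called 1883, 660 and 646 of all genes lower, beside 327 in the main analysis. Its exons share 369 of 7273 bases with E030013I19Rik on the opposite strand. Reads of the shared bases cannot be told apart, as the strandedness of the libraries is not given in the sources used here.

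The FGF ligands had the lowest levels per length (TPM) of the 10 genes, and neither passed the test. Fgf9, on chromosome 14 from 58070671 to 58112854, was at 3.87, 3.35 and 3.13 CPM in the HET libraries and at 5.01, 3.70 and 4.83 CPM in the KO libraries. KO replicate 2 lay inside the heterozygous range and the other knockout libraries lay above the heterozygous range. The log2 fold change was 0.39 ± 0.22 (SE), with a 95% interval from -0.10 to 0.88, and did not pass the test (edgeR, Benjamini-Hochberg adjusted p = 0.339). Fgf20, on chromosome 8 from 40279166 to 40286953, was at 5.74, 5.16 and 4.41 CPM in the HET libraries and at 4.79, 4.96 and 4.42 CPM in the KO libraries, and all knockout values lay inside the heterozygous range. Its log2 fold change was -0.11 ± 0.19 (SE; adjusted p = 0.772 by edgeR with Benjamini-Hochberg), with a 95% interval from -0.55 to 0.32. Fgf20 shares 202 of its 1678 exonic bases with Efha2 on the opposite strand.

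Fgfr1 and Fgfr2, the receptors that progenitors use for these ligands, also overlapped between the groups. Fgfr1, on chromosome 8 from 25518759 to 25575718, was at 237, 251 and 273 CPM in the HET libraries and at 248.6, 281 and 280 CPM in the KO libraries. Its log2 fold change was 0.09 ± 0.09 (SE; adjusted p = 0.579 by edgeR with Benjamini-Hochberg), with a 95% interval from -0.10 to 0.28. Fgfr2, on chromosome 7 from 130162451 to 130266808, was at 68.0, 59.5 and 62.6 CPM in the HET libraries and at 60.3, 61.1 and 54.7 CPM in the KO libraries. Its log2 fold change was -0.11 ± 0.09 (SE; adjusted p = 0.496 by edgeR with Benjamini-Hochberg), with a 95% interval from -0.31 to 0.086. On the TPM scale Fgfr2 was at 43.0 to 53.1 in the heterozygous and 37.4 to 38.1 in the knockout libraries, and the groups did not overlap. TPM divides by transcript length and also lacks the composition scaling (TMM) used for CPM. In the limma fits on TPM with a minimum TPM the median log2 fold change of all genes was itself at -0.13 and -0.14.

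The Fgfr2 sum rested largely on 1 transcript model. Fgfr2-007 joins 5 exons of Fgfr2 with 2 exons that overlap those of another gene, Ctbp2, which encodes a transcriptional corepressor. This model held 65.5%, 61.0% and 57.3% of Fgfr2 counts in the HET libraries and 59.7%, 54.9% and 56.5% in the KO libraries. Reads of either gene could be assigned to it, and the 2 sources cannot be told apart in these tables. Without this model, a comparison chosen after seeing the data, Fgfr2 was at 23.4, 23.2 and 26.7 CPM in the HET and 24.3, 27.6 and 23.8 CPM in the KO libraries. The log2 fold change was then 0.045 ± 0.11 (SE; adjusted p = 0.84 by edgeR with Benjamini-Hochberg), with the opposite sign and again overlapping groups. The exons of the remaining Fgfr2 models share 0 bases with other genes.

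**Figure D3:**
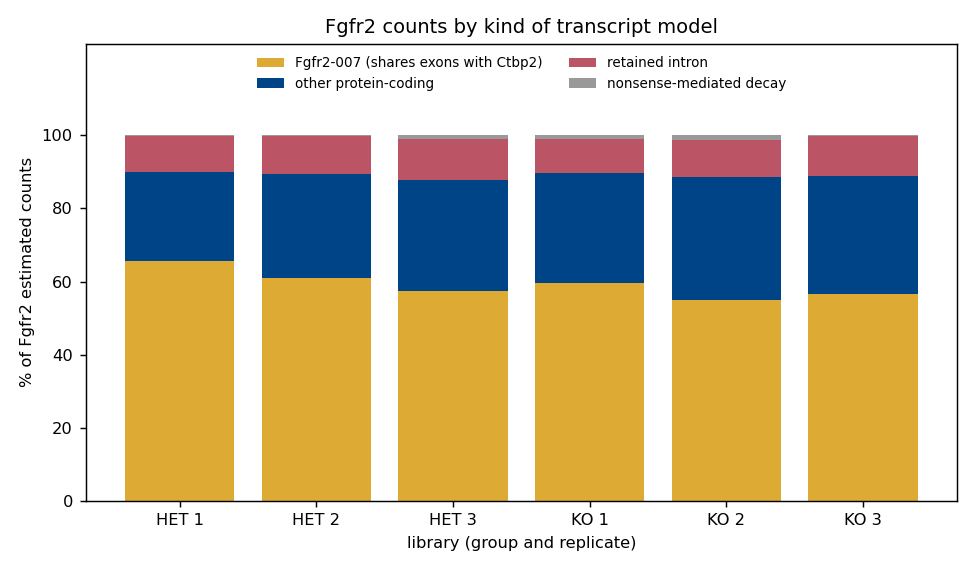
Share of the Fgfr2 estimated counts (y axis, %) on each kind of transcript model, stacked for each of the 6 libraries (x axis). Fgfr2-007, which shares exons with Ctbp2, holds between 54.9% and 65.5% in every library, and retained-intron models hold between 9.4% and 11.2%.

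FGFR1 and FGFR2 each exist in forms that carry 1 of a pair of alternative exons in the ligand-binding region, and the choice sets which FGFs they bind. The second exon of the pair, the form typical of mesenchyme, held 90.7%, 67.1% and 68.2% of the Fgfr1 TPM assigned to either form in the HET libraries. It held 77.0%, 71.6% and 69.2% in the KO libraries. The Fgfr1 values overlapped between the groups, and HET replicate 1 was the library that stood highest. For Fgfr2 the share of the second exon was 52.8%, 39.7% and 47.5% in the HET and 50.1%, 59.1% and 54.0% in the KO libraries, which also overlapped. The Fgfr2 shares rest on the smaller part of its counts, since 61.9% to 72.8% of its protein-coding counts were on models with neither exon, chiefly Fgfr2-007. These are estimates for protein-coding models without the error of assigning reads to them. Models of Fgfr1 with a retained intron held 36.3% to 42.6% of its counts in the HET libraries and 30.0% to 39.0% in the KO libraries.

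Neither of the Sprouty genes passed the test, although the groups of Spry1 were apart. Spry1, on chromosome 3 from 37639947 to 37644599, was at 68.4, 69.7 and 71.6 CPM in the HET libraries and at 59.8, 61.3 and 49.5 CPM in the KO libraries. All knockout values lay below the narrow heterozygous range. Group means were 69.9 ± 1.59 and 56.9 ± 6.42 CPM (SD, n = 3 each), so the knockout level was 81.3% of the heterozygous level. The log2 fold change of -0.30 ± 0.096 (SE; 95% interval -0.51 to -0.084) did not pass the test (edgeR, Benjamini-Hochberg adjusted p = 0.103). It passed with library totals (edgeR, adjusted p = 0.0137) and in the limma fits on log2(TPM + 1) and log2(TPM + 0.1) with a minimum TPM (adjusted p = 0.0460 and 0.0470). In these 3 settings the median of all genes was itself at -0.17, -0.13 and -0.14. They called 1883, 660 and 646 of all genes lower, beside 327 in the main analysis.

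Spry2, on chromosome 14 from 105891947 to 105896819, was at 82.9, 63.6 and 73.1 CPM in the HET libraries and at 92.0, 76.9 and 55.6 CPM in the KO libraries. The knockout libraries held both its highest and its lowest value. Its log2 fold change was 0.03 ± 0.18 (SE; adjusted p = 0.937 by edgeR with Benjamini-Hochberg), and the 95% interval from -0.39 to 0.46 was wide. The sign turned with library totals (-0.13), in the TPM fits, without KO replicate 1 (-0.13) and without HET replicate 2 (-0.060).

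Bmp7, the main BMP ligand of the cap mesenchyme, lies on chromosome 2 from 172868012 to 172940321. It was at 96.9, 92.7 and 94.9 CPM in the HET libraries and at 96.1, 104 and 113 CPM in the KO libraries. KO replicate 1 lay inside the heterozygous range and the other knockout libraries lay above it. The log2 fold change of 0.14 ± 0.083 (SE; 95% interval -0.048 to 0.32) did not pass the test (edgeR, Benjamini-Hochberg adjusted p = 0.369), and its sign turned with library totals (-0.027) and in the TPM fits (-0.005).

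Bmper, the secreted BMP-binding protein, fell to 44.3% of its heterozygous level. It lies on chromosome 9 from 23223076 to 23485215. Its level was 212, 194 and 228 CPM in HET replicates 1 to 3, and 71.8, 119 and 90.3 CPM in KO replicates 1 to 3. The highest knockout library was far below the lowest heterozygous library, and KO replicate 1 was the lowest of all. Group means were 211 ± 16.9 and 93.8 ± 23.8 CPM (SD, n = 3 each), and the log2 fold change was -1.17 ± 0.17 (SE; 95% interval -1.57 to -0.77; edgeR, Benjamini-Hochberg adjusted p = 0.00564). Of all tested genes, 0.76% had a lower log2 fold change. In bulk RNA, fewer cells of a type and less RNA per cell cannot be told apart.

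The call for Bmper held in 18 of 19 alternative analyses. Without HET replicate 1 the log2 fold change was -1.17 and the adjusted p was 0.0649 (edgeR, Benjamini-Hochberg). Without KO replicate 1, the library richest in markers of other cells, it was -1.005 with an adjusted p of 0.000747 (edgeR, Benjamini-Hochberg). Bmper has 1 annotated transcript, which was lower in the test across 50137 transcripts as well (log2 fold change -1.10 ± 0.19, SE; adjusted p = 0.0455 by edgeR with Benjamini-Hochberg). That call over transcripts was lost with each library other than KO replicate 2 left out. Of the 60 transcripts of the 10 genes, 37 could be tested, 1 was lower and 0 were higher, against 0.199% lower and 1.59% higher of all tested transcripts. At an unadjusted p of 0.05 in edgeR 1 was higher and 3 were lower, beside 7.94% and 5.51% of all tested transcripts. Limma voom called 0 higher and only Bmper-201 lower, beside 1.02% and 0.124%. The 2 main transcripts of Spry1 had log2 fold changes of opposite sign, with Spry1-001 at -0.53 ± 0.22 and Spry1-002 at 0.14 ± 0.19 (SE; adjusted p = 0.364 and 0.799 by edgeR with Benjamini-Hochberg).

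Without KO replicate 1 the log2 fold changes of the other genes were -0.31 for Itga8, -0.33 for Spry1, -0.12 for Fgfr2, -0.11 for Fgf20, 0.16 for Fgfr1, 0.20 for Bmp7 and 0.32 for Fgf9, with that of Gdnf at 0.00 and that of Spry2 at -0.13. None of these 9 passed then (edgeR, Benjamini-Hochberg adjusted p from 0.128 to 0.998). Of the 15 other pathway genes described below as called, 11 were also called without this library.

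TPM allows levels of different genes to be set side by side, but it lacks the composition scaling used for CPM. In TPM Fgfr1 was the most abundant of the 10 genes in both groups. Its means were 96.3 TPM in the heterozygous and 92.8 TPM in the knockout libraries, while by CPM its knockout mean was 106.3% of the heterozygous mean. Bmper came next in the heterozygous libraries at 66.0 ± 6.23 TPM and ranked 6 in the knockout libraries at 26.7 ± 5.69 TPM (SD, n = 3 each). In the heterozygous libraries it was followed by Itga8 (49.5 TPM), Fgfr2 (46.6), Spry2 (43.3), Spry1 (34.3), Bmp7 (33.6), Gdnf (8.81), Fgf20 (4.42) and Fgf9 (1.35). The ranges overlapped for 4 of 45 pairs of genes, among Itga8, Fgfr2 and Spry2 and between Spry1 and Bmp7, so the order within those was not resolved. In the knockout libraries the mean TPM was 40.7 for Spry2, 37.7 for Fgfr2, 35.1 for Itga8, 33.5 for Bmp7, 25.7 for Spry1, 8.22 for Gdnf, 3.75 for Fgf20 and 1.73 for Fgf9. There 8 of 45 pairs overlapped. The range of Spry2 met those of Fgfr2, Itga8, Bmp7 and Bmper, those of Itga8, Bmp7 and Bmper met each other, and that of Bmper met Spry1.

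Ratios of TPM within a library do not depend on how libraries are scaled. Bmper exceeded Bmp7 by 1.93, 1.83 and 2.13 times in the HET libraries, and the ratio was 0.656, 1.045 and 0.711 in the KO libraries, with means of 1.96 ± 0.151 and 0.804 ± 0.21 (SD, n = 3 each). Bmp7 was thus the more abundant transcript of the pair in KO replicates 1 and 3 and in no heterozygous library. Fgf20 to Fgf9 was 3.37, 3.34 and 3.12 in the HET and 1.99, 2.52 and 2.07 in the KO libraries, with no overlap. Itga8 to Gdnf was 5.60, 5.76 and 5.51 in the HET and 3.49, 4.58 and 4.86 in the KO libraries, also apart. Fgfr1 to Fgfr2 was 1.79, 2.17 and 2.31 against 2.37, 2.42 and 2.60, higher in every knockout library, with the Ctbp2-sharing model included. Spry1 to Spry2 overlapped, at 0.688, 0.913 and 0.814 against 0.542, 0.663 and 0.742. The exact two-sided permutation p was 0.1 for the 4 ratios that were apart and 0.2 for Spry1 to Spry2 (0.125 and 0.2 after Benjamini-Hochberg adjustment over 5 ratios). With 3 against 3 libraries 0.1 is the smallest p that can be reached. The share of ratios that were apart over other pairs of genes was not computed. Of all tested genes, 29.0% were themselves apart by CPM in either direction. Bmper and Itga8 were apart on their own, so their ratios are not separate results.

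The other genes of these pathways were read from 10 lists with 150 genes, of which 149 were found and 135 tested. Of these, 3 were higher, 12 lower and 120 did not pass, with a median log2 fold change of -0.062. The lists were chosen with earlier results of these data known. Over all tested genes the edgeR shares were 4.92% higher and 1.92% lower, to be set beside each list below. At an unadjusted p of 0.05 they were 12.4% and 9.61%, with DESeq2 6.84% and 2.98%, and with limma voom 4.66% and 1.63%. Around GDNF, 12 list genes were tested, 1 was higher and 2 were lower (median -0.13). Grb10, an adaptor that dampens growth factor receptors, fell from 1355 ± 53.0 to 631 ± 77.4 CPM (log2 fold change -1.10 ± 0.10, SE; adjusted p = 7.65e-05 by edgeR with Benjamini-Hochberg). Gfra3, a coreceptor of the family, fell by 0.63 ± 0.16 on the log2 scale (SE; edgeR, adjusted p = 0.0413), a call kept without KO replicate 3 only among the 6 analyses with 1 library left out, and lost with the replicate block (0.0548), with sex as a covariate (0.125) and in the unfiltered TPM fit (0.0525). Ret, the receptor normally found on the bud, was at 0.233, 0.715 and 0.463 CPM in the HET and 5.66, 4.28 and 1.73 CPM in the KO libraries (log2 fold change 3.03 ± 0.53, SE; edgeR, adjusted p = 0.00953). The call was lost without HET replicate 3 (adjusted p = 0.0602) and in the unfiltered limma fit on log2(TPM + 1), where the value was 0.73 (adjusted p = 0.101), a scale that understates changes of low genes. Its order among the knockout libraries was that of the summed ureteric bud markers, at 283, 134 and 57.8 CPM beside 38.3 to 71.2 CPM in the HET libraries. The part of such cells in the Ret value was not tested. The coreceptor of GDNF itself, Gfra1, was at 250 ± 4.67 and 263 ± 31.7 CPM (SD, n = 3 each) and did not pass.

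Regulators of Gdnf were the list with the most calls, 6 lower and 0 higher of 15 in edgeR (median -0.40), beside 1.92% and 4.92% of all tested genes. At an unadjusted p of 0.05 there were 10 lower and 1 higher, beside 9.61% and 12.4%. DESeq2 gave 8 lower and 0 higher, beside 2.98% and 6.84%, and limma voom gave 5 lower and 0 higher, beside 1.63% and 4.66%. The genes that fell included Hoxd11 (log2 fold change -0.79 ± 0.085), Foxc1 (-0.80 ± 0.13), Wt1 (-0.74 ± 0.13) and Foxc2 (-0.78 ± 0.16), transcription factors of the metanephric mesenchyme (SE; adjusted p = 0.000233, 0.00326, 0.00723 and 0.0163 by edgeR with Benjamini-Hochberg). Slit2, a secreted ligand of the ROBO2 receptor, fell from 178 to 132 CPM, and Kif26b, a kinesin, from 182 to 141 CPM (edgeR, adjusted p = 0.0233 and 0.0398). Robo2, which restricts the domain of Gdnf and had the highest CPM of the list, was at 626 and 470 CPM and did not pass (edgeR, adjusted p = 0.0923). Gdnf itself did not pass beside these genes, as given above. Without KO replicate 2, Wt1 and Foxc2 did not pass (edgeR, adjusted p = 0.0604 and 0.0900), nor did Slit2 (0.121). Foxc2 was also lost without HET replicate 1 or 2 (0.0522 and 0.0582) and in the unfiltered TPM fit (0.0867), Slit2 without KO replicate 1 (0.0663), in 2 TPM fits (0.0503 and 0.107) and with sex as a covariate (0.0779), and Kif26b without any library other than KO replicate 3 (up to 0.147). Kif26b also did not pass with limma voom (0.0513), with a transcript length offset (0.0875), in the 3 TPM fits (0.0505 to 0.0784), with the replicate block (0.0621) or with sex as a covariate (0.118).

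Among 12 partners of the alpha8 integrin, 1 was higher and 1 lower (median 0.14). Frem2, a basement membrane protein, rose from 51.0 ± 4.49 to 72.6 ± 3.00 CPM (log2 fold change 0.51 ± 0.090, SE; adjusted p = 0.00686 by edgeR with Benjamini-Hochberg), and Vtn, the matrix protein vitronectin, fell from 3.96 to 1.41 CPM (edgeR, adjusted p = 0.0202). The Vtn call was lost without HET replicate 1 or 2 or KO replicate 2 (adjusted p = 0.0701, 0.0596 and 0.0652) and in the unfiltered TPM fit (0.0543), and that of Frem2 in the TPM fits. Itgb1, the chain that pairs with ITGA8, was at 248 and 265 CPM, and Npnt, the ligand nephronectin, at 19.9 ± 2.45 and 28.6 ± 11.4 CPM, and neither passed.

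Of 14 other FGF ligands tested, 0 were higher and 1 was lower, while 6 of the list could not be tested. Fgf10, an FGF that can support branching of the bud, fell from 89.0 ± 3.95 to 62.6 ± 7.79 CPM (log2 fold change -0.51 ± 0.10, SE; adjusted p = 0.0137 by edgeR with Benjamini-Hochberg) and passed in all 19 alternatives. Of 15 receptors and adaptors, 0 were higher and 1 was lower: Flrt1, a membrane protein that binds FGF receptors, fell from 250 to 189 CPM (edgeR, adjusted p = 0.0283, lost without HET replicate 1 or 3 or KO replicate 1 or 2, up to 0.150, with sex as a covariate, 0.098, and in the unfiltered TPM fit, 0.0688). Higher calls in these lists numbered 2 for ligands and 1 for receptors at an unadjusted p of 0.05, 1 and 0 with DESeq2, and 0 and 0 with limma voom.

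None of the 11 FGF target and feedback genes tested passed in edgeR in either direction, and at an unadjusted p of 0.05 there was 1 higher and 0 lower. DESeq2 and limma voom also gave 0. Etv4 and Etv5, transcription factors induced by FGF and RET signals, had log2 fold changes of -0.083 ± 0.17 and 0.11 ± 0.092 (SE). Dusp6, a phosphatase that ends ERK signalling, was at 75.8, 75.1 and 80.8 CPM in the HET and 116, 109 and 75.3 CPM in the KO libraries, and Spry4, a further Sprouty, at 40.8, 38.5 and 44.5 against 58.4, 53.5 and 35.2 CPM. In both, as in Spry2, KO replicate 3 was lower than the other knockout libraries. Without KO replicate 3, Dusp6 and Spry4 passed as higher, with log2 fold changes of 0.54 and 0.44 (edgeR, Benjamini-Hochberg adjusted p = 0.00896 and 0.0435). Beside KO replicate 3, KO replicates 1 and 2 also had more ureteric bud, stroma and endothelium markers, and the part of those cells was not tested.

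In the BMP pathway few genes passed. Of 8 other BMP ligands tested and 17 receptors and SMADs, 0 passed in edgeR, with medians of 0.32 and -0.16. At an unadjusted p of 0.05 there was 1 ligand higher and 0 lower, and 1 receptor or SMAD higher and 3 lower, and DESeq2 and limma voom called 0 in both lists. Bmp4 was at 35.8 ± 4.69 and 38.3 ± 3.17 CPM (SD, n = 3 each). Among 22 extracellular modulators tested, 1 was higher and 1 lower in edgeR besides Bmper. At an unadjusted p of 0.05 there were 3 higher and 6 lower, beside 12.4% and 9.61% of all tested genes. DESeq2 called 1 higher and 2 lower, beside 6.84% and 2.98%, and limma voom 1 and 1, beside 4.66% and 1.63%. Sost, the secreted inhibitor sclerostin, rose from 3.35 ± 0.242 to 7.44 ± 0.653 CPM (log2 fold change 1.151 ± 0.19, SE; adjusted p = 0.0039 by edgeR with Benjamini-Hochberg) and passed in all 19 alternatives. Nbl1, a BMP antagonist of the DAN family, fell from 12.4 to 6.84 CPM (edgeR, adjusted p = 0.0168, or 0.0506, 0.0794 and 0.0773 without HET replicates 2 and 3 and KO replicate 2, and 0.0568 with sex as a covariate). Grem1, the antagonist that permits bud outgrowth, was at 1.28, 3.13 and 1.92 CPM against 0.615, 0.868 and 0.982 CPM, apart but not past the test (edgeR, adjusted p = 0.0653). Of 11 BMP targets 0 passed in edgeR, with 1 higher and 2 lower at an unadjusted p of 0.05, 1 lower with DESeq2 and 1 higher with limma voom. Id1, Id2 and Id3, transcription regulators induced directly by BMP signals, had log2 fold changes of 0.071, 0.053 and 0.003, and Id3 was at 2112 and 2115 CPM.

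**Figure D4:**
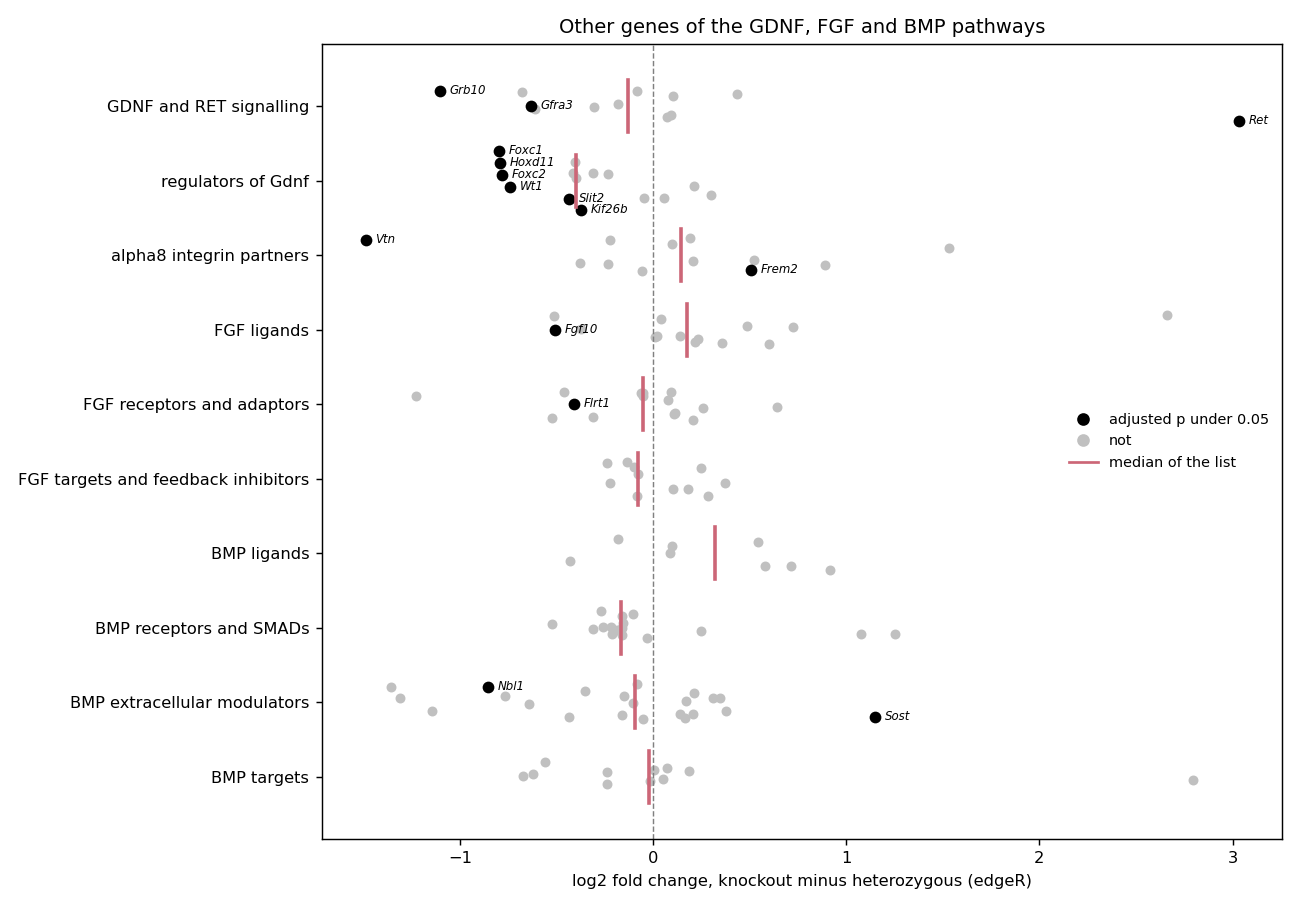
Log2 fold change, knockout minus heterozygous, from edgeR (x axis) for each tested gene of the 10 pathway lists (rows), without the 10 genes described above. Black named points have an adjusted p under 0.05, grey points do not, and the red bar is the median of the list, which was lowest for regulators of Gdnf at -0.40.

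The levels of Bmper, Itga8 and Spry1 were set beside markers of the cell types the sort could hold. The summed level of 8 cap mesenchyme markers was 1156 to 1365 CPM in the HET and 943 to 1148 CPM in the KO libraries, without overlap. HET replicate 1 at 1156 CPM and KO replicate 3 at 1148 CPM lay close together. Of these 8, 1 was lower: Cited1, a marker of uncommitted progenitors, was at 123, 142 and 143 CPM in the HET and 56.5, 96.1 and 65.1 CPM in the KO libraries (edgeR, Benjamini-Hochberg adjusted p = 0.0344, lost without any 1 HET library and without KO replicate 3, up to 0.119, and without a filter on low counts, 0.0518). Its order among the knockout libraries was that of Bmper, with KO replicate 1 lowest and KO replicate 2 highest. Six2 was at 113 ± 11.99 and 92.0 ± 15.5 CPM (SD, n = 3 each) and did not pass. Meox1, of the same list, went the other way, at 27.8, 37.7 and 34.6 CPM in the HET libraries. It was at 39.4, 49.6 and 56.7 CPM in the KO libraries, without overlap. The log2 fold change of 0.54 did not pass the test (edgeR, Benjamini-Hochberg adjusted p = 0.0704). Summed stroma markers were 377 to 437.5 CPM in the HET libraries and 1212.5, 585 and 472.5 CPM in KO replicates 1 to 3. Not all genes of that list rose: Foxd1 was at 15.8 ± 2.98 and 15.6 ± 0.191 CPM (SD, n = 3 each), with KO replicate 1 at 15.4 CPM. Summed ureteric bud, stroma and endothelium markers were highest in KO replicate 1, where Bmper and Itga8 were lowest, whereas Spry1 was lowest in KO replicate 3. Macrophage markers summed to 18.2 to 19.2 CPM in the HET and 21.5 to 26.9 CPM in the KO libraries, and tubule markers to 35.6 to 59.6 and 35.6 to 135 CPM. Podocyte markers summed to 75.3 to 85.3 and 51.1 to 71.2 CPM, early nephron markers to 686.5 to 738 and 761 to 863 CPM, and erythroid markers to 186 to 414 and 141 to 313.5 CPM. Of 10 stroma, 10 endothelium, 7 tubule and 9 early nephron markers tested, 1 each was called higher in edgeR. Of 7 podocyte markers 2 were lower, and 0 of 10 ureteric bud, 10 macrophage and 4 erythroid markers passed. Over all tested genes 4.92% were higher and 1.92% lower. At an unadjusted p of 0.05 in edgeR 3 endothelium, 3 early nephron, 2 ureteric bud, 2 stroma, 1 tubule and 1 cap mesenchyme markers were higher. There 3 cap mesenchyme, 2 podocyte, 1 early nephron and 1 erythroid markers were lower, and 0 macrophage markers differed. The shares of all tested genes were 12.4% higher and 9.61% lower. DESeq2 called 0 macrophage or erythroid markers, 2 cap mesenchyme, 2 podocyte and 1 early nephron markers lower, and 1 cap mesenchyme, 4 endothelium, 2 stroma, 2 ureteric bud, 1 tubule and 1 early nephron markers higher. Limma voom called 2 stroma, 1 endothelium and 1 early nephron markers higher, and 2 podocyte and 1 cap mesenchyme markers lower. It called 0 ureteric bud, tubule, macrophage or erythroid markers. Over all genes DESeq2 called 6.84% higher and 2.98% lower, and limma voom 4.66% and 1.63%. The part of a changed mix of cells in the values of the 3 genes was not tested.

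**Figure D5:**
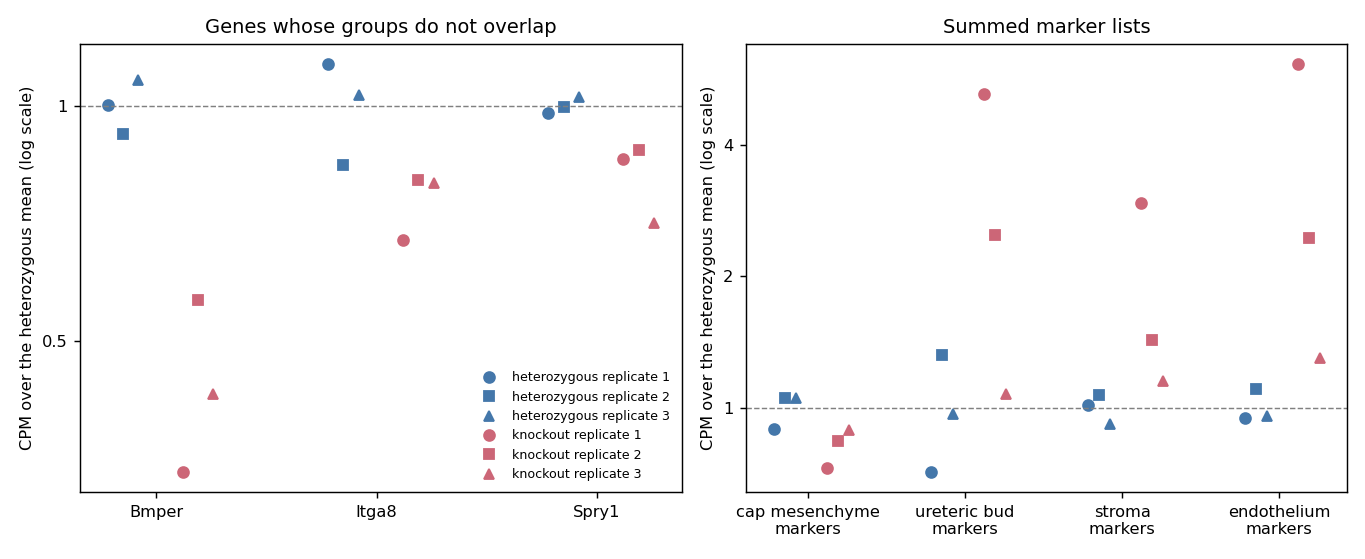
CPM divided by the mean of the heterozygous libraries (y axes, log scale) in each library, for Bmper, Itga8 and Spry1 on the left and for 4 summed marker lists on the right. Knockout replicate 1 (circle) is lowest for Bmper at 71.8 CPM and highest for the endothelium markers at 194 CPM.

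The protein-coding genes whose pattern over the 6 libraries was most like that of Gdnf and of Bmper were found among 13578 genes, by the root mean square difference of log2(CPM + 1) values centred on each gene's mean. For Gdnf these were Golga3, Zfml and Clk2, at differences of 0.028, 0.0281 and 0.0324. For Bmper they were Itih2 at 0.137, Olfml2a at 0.146 and Grb10 at 0.149, the adaptor described above. Itih2 and Olfml2a had log2 fold changes of -1.43 and -1.04 (edgeR, Benjamini-Hochberg adjusted p = 0.000747 and 0.0130, the latter 0.0573 without HET replicate 1). The closest genes to Bmper differed from it by several times more than those closest to Gdnf, whose own level varied little.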

How the data were processed

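RNA-seq of 6 sorted cap mesenchyme libraries was analysed, 3 per genotype, grouped by the sample titles. The authors deposited transcript-level tables, 1 for each library, made with kallisto per the submitters' processing notes. Per the file headers the columns hold estimated counts, TPM (counts scaled for transcript length and library total) and effective transcript lengths. The effective length, another deposited value in bases, was used only as an offset in 1 alternative. The submitters' processing notes name mm10. Of the kallisto version, index annotation and strandedness nothing is given in the sources used here.

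GENCODE vM1 paired 74519 of 96626 transcripts with 26567 genes, which held 92.4% to 92.82% of the counts. Unpaired transcripts (7.18% to 7.6%) entered the transcript test only. Coordinates and promoter windows are RefSeq GRCm38.p6, and exon overlaps were read from vM1 by identity only. Counts were summed per gene, rounded and tested with edgeR 4.0.16 (quasi-likelihood, TMM, filterByExpr, robust; limma 3.58.1, R 4.3.3), knockout against heterozygous without covariates, with Benjamini-Hochberg adjustment over 16989 genes at 0.05. The biological coefficient of variation was 0.21. Intervals are 95% intervals of the fit. CPM values use TMM library sizes, and ratios were tested by exact permutation. The test was checked on simulated data. No libraries within a group agreed within sampling noise.

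The 10 genes and the lists were chosen with earlier results of these data known. A gene taken out of a list afterwards is not reported here. Named besides them are Dnmt1, up to 6 called genes with the smallest p and the gene with the highest mean CPM of each pathway list, 14 pathway genes and 5 markers chosen by symbol, and the 3 genes most like Gdnf and Bmper. Meox1 was named after its values were seen. Other settings were the Wald test of DESeq2 1.42.0, its size factors within edgeR, library totals, limma voom, other filters, a length offset, limma on TPM (log2(TPM + 1) with and without a minimum mean TPM of 1, and log2(TPM + 0.1) with it), non-robust dispersions, the replicate number as a block, sex as a covariate (male above 50 CPM of Y-linked genes) and each library left out.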

Additional observations from a re-analysis of the deposited data

How the results depend on the processing

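Besides the main analysis there were 19 alternatives for most genes, 20 for Fgfr2, 17 for Ret, Grem1 and Wnt11 and 16 for Fgf8, as the others gave them no value. Bmper kept its direction in all of them, with log2 fold changes from -1.37 to -1.005. Over the 10 genes 162 of 191 alternative values kept sign and side of the threshold. The number of the 10 genes lower in the knockout was 3 with library totals and in both TPM fits with a minimum TPM, 2 with DESeq2, and 0 to 2 with 1 library left out. It was 0 without HET replicate 1 and 2 without HET replicate 2, where Itga8 was added.

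Over all genes, lower calls numbered 1883 with library totals, 583 with DESeq2, 660 and 646 with limma on log2(TPM + 1) and log2(TPM + 0.1), 162 with sex as a covariate and 116 to 272 with 1 library left out. Higher calls numbered 1339 with DESeq2, 442 and 436 in those TPM fits, 543 in the unfiltered one and 526 to 916 with 1 library left out. Among pathway genes, lower calls were 30 with library totals, 7 in the unfiltered TPM fit, 7 with sex as a covariate and 4 (without KO replicate 2) to 13 with 1 library left out. Higher pathway calls were 5 with DESeq2, 1 in each of the 3 TPM fits and 2 (without HET replicate 3) to 7 (without KO replicate 3). Transcripts of the 10 genes called lower numbered 0 to 1 and higher 0 to 1 with 1 library left out. The 1 higher was Fgfr2-013 without KO replicate 3 (adjusted p = 0.0478).

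The replicate numbers did not pair the libraries: same-numbered libraries had correlations of -0.087, -0.04 and -0.034 over 13725 genes, and no library correlated best with its own number. With the replicate number as a block, 1 of the 10 genes and 0 of their transcripts were lower, all-gene calls were 265 lower and 707 higher, and Bmper had an adjusted p of 0.0233.

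Signs turned for genes whose log2 fold change in the analysis reported lay between -0.11 and 0.14. With library totals, which moved the median of all genes to -0.17, the log2 fold changes were -0.14 for Gdnf, -0.076 for Fgfr1, -0.027 for Bmp7, -0.13 for Spry2, -0.066 for Itgb1, -0.066 for Bmp4, -0.16 for Id3, -0.094 for Gfra1, -0.062 for Etv5, -0.15 for Fgf8, -0.094 for Id1 and -0.11 for Id2. With limma on log2(TPM + 1), median -0.13, they were -0.082 for Gdnf, -0.053 for Fgfr1, -0.005 for Bmp7, -0.11 for Spry2, -0.026 for Itgb1, -0.12 for Id3, -0.02 for Gfra1, -0.018 for Etv5, -0.049 for Id1 and -0.071 for Id2, and the unfiltered fit gave the same values and -0.025 for Fgf8. With log2(TPM + 0.1), median -0.14, they were -0.089 for Gdnf, -0.054 for Fgfr1, -0.005 for Bmp7, -0.11 for Spry2, -0.026 for Itgb1, -0.12 for Id3, -0.02 for Gfra1, -0.019 for Etv5, -0.049 for Id1 and -0.071 for Id2. Without a filter Id3 was at -0.001, and with sex as a covariate Fgf8 was at -0.086 and Foxd1 at 0.007. Without HET replicate 1 the values were -0.008 for Bmp4, 0.016 for Smad5, -0.12 for Id3, -0.35 for Fgf8, -0.021 for Id1, -0.001 for Id2 and 0.14 for Foxd1. Without HET replicate 2 Gdnf was at -0.066 and Spry2 at -0.06. Without KO replicate 1 Spry2 was at -0.13, Smad5 at 0.002 and Etv4 at 0.093. Without KO replicate 2 Id3 was at -0.07 and Id1 at -0.011, and without KO replicate 3 Fgf8 was at -0.19. With 1 library left out, values lay between -0.066 and 0.106 for Gdnf, -0.13 and 0.207 for Spry2, -0.008 and 0.172 for Bmp4, -0.12 and 0.072 for Id3, -0.219 and 0.093 for Etv4, -0.35 and 0.241 for Fgf8, -0.021 and 0.126 for Id1, and -0.001 and 0.131 for Id2. Fgfr2 was at 0.045 without the transcript model shared with Ctbp2. The cause was not tested. The least abundant genes, such as Fgf9 and Fgf20, had the widest intervals.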
